A study of Mus musculus with 8 samples.

Results

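Genes of Norrin signalling and of the blood-retina barrier were followed in bulk RNA-seq of whole mouse retina. The 10 genes were chosen by name from 54532 genes in the count table: *Ndp*, *Fzd4*, *Lrp5*, *Tspan12*, *Lef1*, *Apcdd1*, *Plvap*, *Cldn5*, *Mfsd2a* and *Slc2a1*. The comparison was of 4 retinal samples of *Mettl3*-CKO mice (Six3-Cre+, with both *Mettl3* alleles floxed) with 4 retinal samples of controls. Both groups were at postnatal day 7 by the sample labels, while the methods of the study give day 6 for the RNA-seq. How many animals or retinas went into each sample is not given in the sources used here. METTL3 is the core of the enzyme complex that writes the m6A mark on RNA, and Six3-Cre deletes floxed alleles in retinal progenitor cells (RPCs). The controls are labelled only as control, so whether they carried Cre or were littermates is not given for the RNA-seq in the sources used here. Retinal blood vessels do not arise from RPCs, so the vessels of these mice are not the lineage that the driver targets.

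Norrin, the product of *Ndp*, is a secreted ligand made in the retina mainly by Müller glia. It binds the receptor FZD4 on endothelial cells together with the coreceptors LRP5 and TSPAN12, which stabilizes β-catenin and switches on TCF/LEF target genes, and it is required for vessels to grow into the deeper retina and to close their barrier. A closed barrier is marked by the tight junction protein claudin-5 (*Cldn5*), the lipid transporter MFSD2A and the glucose transporter GLUT1 (*Slc2a1*), and by absence of the fenestration protein PLVAP. Several of these genes are not limited to vessels: GLUT1 is also made by the retinal pigment epithelium and by cells of the neural retina, and LRP5 by glia.

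Total counts were 16227095 to 20281517 per library, and a count of 3 corresponded to between 0.148 and 0.185 CPM (the count scaled to the size of the library). CPM values were also scaled by edgeR's TMM factors. Where 4 values of a group are listed, they are in the order of replicates 1 to 4. The targeted gene *Mettl3* was at 21.1, 29.6, 21.3 and 24.3 CPM in *Mettl3*-CKO and at 33.8, 32.5, 29.4 and 29.3 CPM in control, a log2 fold change of -0.38 (adjusted p = 0.0602, edgeR). Replicate 2 of the *Mettl3*-CKO group lay within the range of the controls, and counts over the whole gene include reads outside the deleted segment. Control replicate 1 stood apart, with 12.5 CPM of the endothelial marker *Pecam1* against 3.45 to 4.71 CPM in the other controls, and with 2.38% of its counts from mitochondrial genes against 1.69 to 1.76%. That share was 2.10, 1.77, 2.26 and 1.87% in *Mettl3*-CKO, above control replicates 2 to 4 in every sample, and its part in the results was not tested. Control replicate 4 had 3401 CPM summed over 12 lens genes, against 4.83 to 60.5 CPM in the other controls and 6.49 to 18.3 CPM in *Mettl3*-CKO, so the tests of the 10 genes and of the gene lists were also run without control replicate 1 and without both of these controls. Nothing in the labels says how the animals or litters were sampled beyond the replicate number, so the p-values measure only the spread between these samples, which may be technical.

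Among the 10 genes, *Cldn5* was lower and *Slc2a1* higher in *Mettl3*-CKO retinas, and the other 8 did not pass the test. The ligand, receptor and coreceptor genes of Norrin signalling were all among those 8, as were *Lef1* and *Apcdd1*, the genes taken here as its targets. Whether *Cldn5* and *Slc2a1* respond to Norrin in these retinas was not tested. None of the 10 was removed by the filter for low counts. A gene was called changed at a Benjamini-Hochberg adjusted p-value under 0.05 over 17998 genes tested with edgeR's quasi-likelihood test. Over all genes tested, 6.49% were called higher and 4.05% lower, and 1 gene of 10 in each direction is read against these shares. The median log2 fold change of the 10 genes was 0.10, beside -0.01 over all genes tested.

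**Figure D1:**
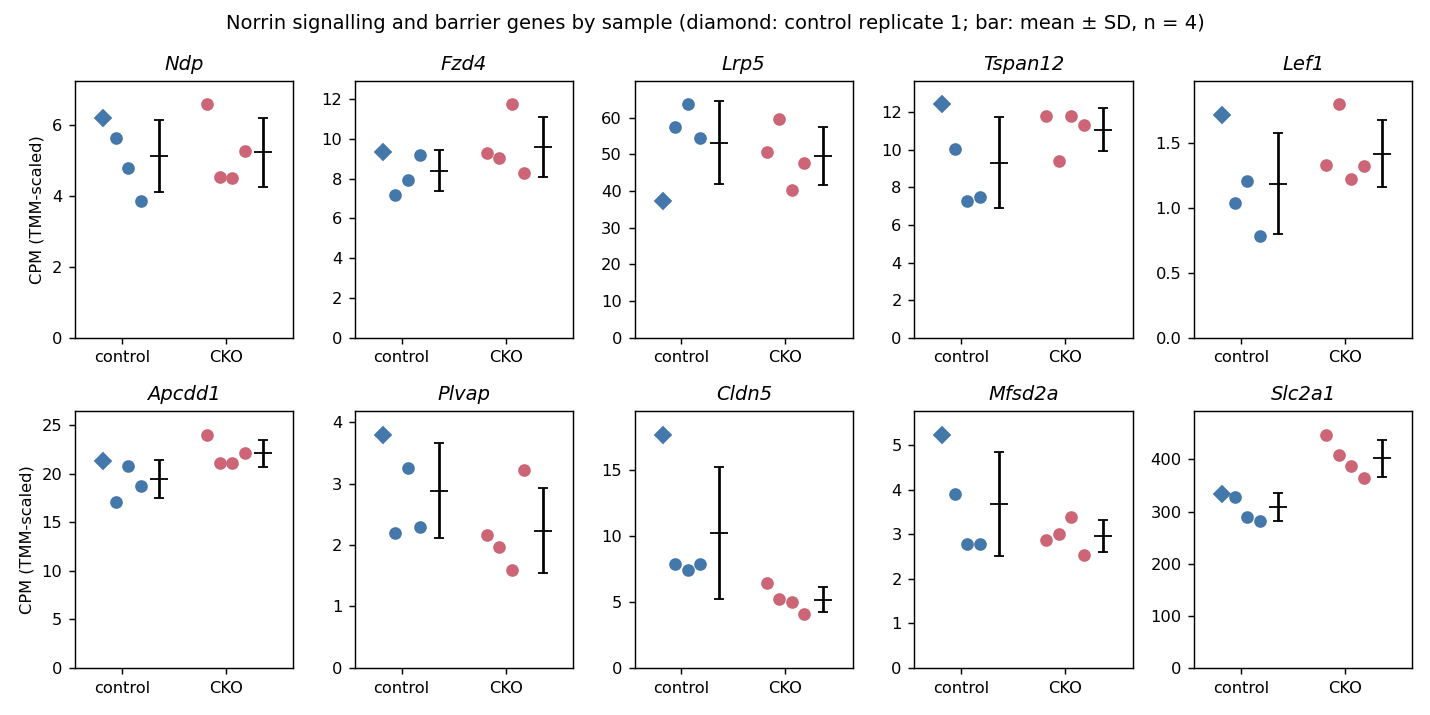
Each panel plots the CPM (TMM-scaled, axis from 0) of 1 gene in 4 control and 4 *Mettl3*-CKO retinal samples. The mean and SD of each group are drawn as a bar beside the points. The groups are apart in *Cldn5* (4.06 to 6.41 CPM in *Mettl3*-CKO, 7.40 to 17.7 in control) and in *Slc2a1* (363 to 448 CPM, 281 to 333 in control), and control replicate 1, the diamond, is the highest *Cldn5* sample.

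Levels per transcript length were compared between genes as FPKM computed from the same scaled counts. In the controls, *Slc2a1* was highest at 88.0 ± 7.59 FPKM (SD, n = 4), 12.2-fold above *Cldn5* at 7.20 ± 3.51 FPKM. *Apcdd1* (6.96 ± 0.698 FPKM) and *Lrp5* (5.46 ± 1.16 FPKM) followed, and neighbours among *Cldn5*, *Apcdd1* and *Lrp5* overlapped in their ranges. The place of *Apcdd1* in both groups rests on a gene length of 2799 bases, where the GENCODE vM21 annotation gives 12884 exonic bases. The next genes in order were *Tspan12* at 2.81 ± 0.730, *Ndp* at 2.64 ± 0.527, *Mfsd2a* at 1.64 ± 0.521, *Plvap* at 1.45 ± 0.388 and *Fzd4* at 1.25 ± 0.156 FPKM, each overlapping with its neighbour. *Lef1* was lowest, at 0.135 ± 0.0445 FPKM, 9.27-fold below *Fzd4*. In *Mettl3*-CKO retinas *Cldn5* was at 3.65 ± 0.685 FPKM, with *Apcdd1* at 7.90 ± 0.494 and *Lrp5* at 5.09 ± 0.816 FPKM, the latter overlapping with *Cldn5*, while *Slc2a1* was at 115 ± 10.2 FPKM. The place of *Cldn5* above *Apcdd1* and *Lrp5* in the controls rested on control replicate 1: over control replicates 2 to 4 the means were 6.74 ± 0.660 for *Apcdd1*, 6.01 ± 0.486 for *Lrp5* and 5.45 ± 0.197 FPKM for *Cldn5* (SD, n = 3), the same order as in *Mettl3*-CKO.

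The ligand gene *Ndp* (ENSMUSG00000040138, chrX:16885521-16911774, minus strand, GRCm38) did not differ beyond the spread between replicates. Its CPM was 6.58, 4.52, 4.52 and 5.28 in *Mettl3*-CKO, and 6.21, 5.63, 4.77 and 3.87 in control. The groups overlap over nearly their whole range, with the highest and the lowest sample in different groups. The log2 fold change was 0.03 (SE 0.19, 95% interval -0.39 to 0.44, adjusted p = 0.952). These values rest on 64 to 119 counts a library. Without control replicate 1 the log2 fold change was 0.14 (adjusted p = 0.666), and its sign depended on the samples, being -0.095 without *Mettl3*-CKO replicate 1 and -0.084 without control replicate 4.

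The Norrin receptor gene *Fzd4* (ENSMUSG00000049791, chr7:89404355-89413134, plus strand) was at 9.29, 9.05, 11.7 and 8.31 CPM in *Mettl3*-CKO and at 9.36, 7.16, 7.92 and 9.19 CPM in control. Replicate 3 of the *Mettl3*-CKO group was the highest sample, and the other values overlap between the groups. Its log2 fold change was 0.19 (SE 0.15, 95% interval -0.13 to 0.51, adjusted p = 0.484), and 0.083 without that sample (adjusted p = 0.808). The coreceptor gene *Lrp5* (ENSMUSG00000024913, chr19:3584828-3686564, minus strand) was at 50.8, 59.5, 40.4 and 47.6 CPM in *Mettl3*-CKO and at 37.2, 57.5, 63.6 and 54.3 CPM in control. Control replicate 1 was the lowest sample for *Lrp5*, the reverse of its place for *Cldn5*. The log2 fold change of *Lrp5* was -0.10 (SE 0.16, 95% interval -0.44 to 0.24, adjusted p = 0.748), and -0.24 (adjusted p = 0.162) without that sample. It was -0.00043 without control replicate 3 and -0.011 without *Mettl3*-CKO replicate 3, so the size of this difference depended on single samples in both groups.

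*Tspan12* (ENSMUSG00000029669, chr6:21771395-21852515, minus strand), which codes for the tetraspanin that joins the receptor complex, was at 11.8, 9.39, 11.8 and 11.3 CPM in *Mettl3*-CKO. In control it was at 12.4, 10.04, 7.29 and 7.49 CPM. Control replicates 3 and 4 were below every *Mettl3*-CKO sample, and control replicate 1 was above every one of them. The log2 fold change was 0.25 (SE 0.17, 95% interval -0.13 to 0.63, adjusted p = 0.419). It was 0.42 without control replicate 1 (SE 0.15, unadjusted p = 0.0126, adjusted p = 0.0632), over 1.5 times the value with it and still not called, whereas it was 0.16 without control replicate 3 or control replicate 4.

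The genes taken here as targets were *Lef1* and *Apcdd1*. *Lef1* (ENSMUSG00000027985, chr3:131110471-131224356, plus strand) codes for a transcription factor, a β-catenin partner that is also a target. *Apcdd1* (ENSMUSG00000071847, chr18:62922327-62953195, plus strand) codes for a membrane inhibitor of Wnt and Norrin signalling. *Lef1* was at 1.33, 1.80, 1.22 and 1.32 CPM in *Mettl3*-CKO and at 1.71, 1.04, 1.21 and 0.786 CPM in control. The *Lef1* values are of 13 to 32 counts a library, and the 95% interval of its log2 fold change of 0.24 reached from -0.40 to 0.89 (SE 0.30, adjusted p = 0.674). *Apcdd1* was at 24.1, 21.1, 21.1 and 22.2 CPM in *Mettl3*-CKO and at 21.3, 17.1, 20.8 and 18.7 CPM in control, so that only control replicate 1 overlapped with the *Mettl3*-CKO samples. Its log2 fold change was 0.18 (SE 0.10, 95% interval -0.04 to 0.41, adjusted p = 0.315). Without control replicate 1 the log2 fold change of *Lef1* was 0.47 (adjusted p = 0.292), over 1.5 times the value with it. That of *Apcdd1* was 0.23 (adjusted p = 0.148). The groups then did not overlap in either gene, but the share of all genes in that setting is not given here. For *Lef1*, *Mettl3*-CKO replicate 3 and control replicate 3 had 23 counts each, so only the scaling to library size parted them. The *Lef1* value was 0.093 without control replicate 4 and 0.11 without *Mettl3*-CKO replicate 2, and leaving out 1 sample at a time moved *Apcdd1* between 0.13 and 0.23.

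*Plvap* (ENSMUSG00000034845, chr8:71497765-71511752, minus strand), whose product forms the diaphragms of fenestrated, leaky endothelium, was low in both groups. Its CPM was 2.16, 1.97, 1.59 and 3.22 in *Mettl3*-CKO and 3.80, 2.20, 3.25 and 2.30 in control. The second highest *Mettl3*-CKO sample lay below every control, while *Mettl3*-CKO replicate 4 lay above replicates 2 and 4 of the controls. The log2 fold change was -0.37 (SE 0.27, 95% interval -0.95 to 0.21, adjusted p = 0.446), and -0.21 (adjusted p = 0.631) without control replicate 1. Without that sample the upper bound of the 95% interval was 0.35, and leaving out 1 sample at a time gave log2 fold changes of -0.60 to -0.21. The gene span of *Plvap* shares 1819 bases with *Gtpbp3* on the opposite strand, which had 364 to 503 counts, but no base that is exonic in both.

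*Cldn5* (ENSMUSG00000041378, chr16:18776847-18778262, plus strand), the claudin of endothelial tight junctions, was lower in *Mettl3*-CKO retinas. Its CPM was 6.41, 5.22, 4.99 and 4.06 in *Mettl3*-CKO and 17.7, 7.90, 7.40 and 7.86 in control, from 83 to 116 and 129 to 330 counts. Every *Mettl3*-CKO sample was below every control, and control replicate 1 was far above the other controls. The mean fell from 10.2 ± 4.97 to 5.17 ± 0.970 CPM (SD, n = 4 each), a log2 fold change of -0.99 (SE 0.27, 95% interval -1.57 to -0.40, adjusted p = 0.0372), or a fold of 0.505. The change was smaller and still called without control replicate 1, at -0.58 (SE 0.17, 95% interval -0.93 to -0.23, adjusted p = 0.0253). Without control replicates 1 and 4 it was -0.57 and no longer called (adjusted p = 0.0753), and the call was also lost when any of the 4 *Mettl3*-CKO samples was left out (adjusted p = 0.0749, 0.0838, 0.0919 and 0.0988 without replicates 1 to 4, with log2 fold changes of -1.10, -0.99, -0.96 and -0.88).

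*Mfsd2a* (ENSMUSG00000028655, chr4:122946850-122961188, minus strand), which codes for a lipid transporter that keeps transcytosis low in barrier endothelium, was at 2.88, 3.02, 3.40 and 2.54 CPM in *Mettl3*-CKO. In control it was at 5.24, 3.92, 2.78 and 2.78 CPM. Control replicates 3 and 4 lay within the range of the *Mettl3*-CKO samples and control replicates 1 and 2 above it. The log2 fold change was -0.32 (SE 0.23, 95% interval -0.82 to 0.19, adjusted p = 0.450), and -0.09 (adjusted p = 0.799) without control replicate 1, while leaving out control replicate 4 gave -0.43.

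*Slc2a1* (ENSMUSG00000028645, chr4:119108711-119137983, plus strand), the gene of the glucose transporter GLUT1, was higher in *Mettl3*-CKO retinas. Its CPM was 448, 409, 387 and 363 in *Mettl3*-CKO and 333, 329, 289.9 and 281 in control. Every *Mettl3*-CKO sample was above every control. The mean rose from 308 ± 26.6 to 402 ± 35.8 CPM (SD, n = 4 each), a fold of 1.30 and a log2 fold change of 0.38 (SE 0.09, 95% interval 0.18 to 0.58, adjusted p = 0.0217). It was 0.42 without control replicate 1 (SE 0.09, adjusted p = 0.00407), while the call was lost without *Mettl3*-CKO replicate 1 (0.33, adjusted p = 0.0711), control replicate 3 (0.36, adjusted p = 0.0548) or control replicate 4 (0.34, adjusted p = 0.0668). Without control replicates 1 and 4 together it was 0.37 and called (adjusted p = 0.0336).

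**Figure D2:**
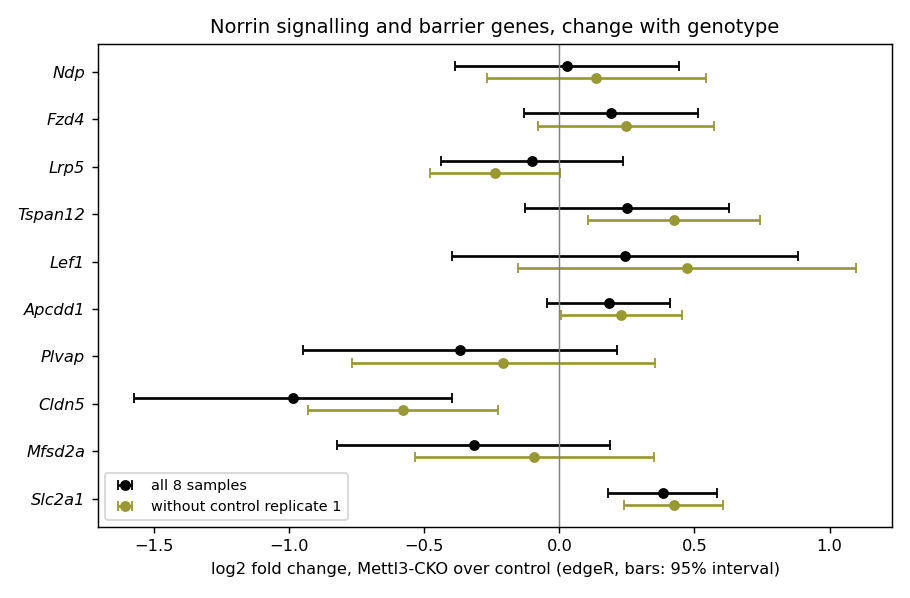
The log2 fold change of each gene (x axis, *Mettl3*-CKO over control, edgeR) is plotted with its 95% interval, in black for all 8 samples and in olive without control replicate 1. *Cldn5* moves from -0.99 to -0.58 and *Slc2a1* from 0.38 to 0.42, and both intervals of each gene leave out 0.

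Leaving out control replicate 1 left the counts at 1 gene higher and 1 lower of the 10, *Slc2a1* and *Cldn5* as before, with a median log2 fold change of 0.18. Over all 18235 genes tested without that sample, 10.3% were called higher and 7.07% lower. By CPM alone, with all 8 samples, groups that did not overlap were seen for 9.77% of all genes tested in the higher and 7.58% in the lower direction, and for 1 of the 10 genes in each, again *Slc2a1* and *Cldn5*.

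The promoters of these 2 genes are shown because they were the ones that changed, and in opposite directions. RefSeq windows of GRCm38.p6 were at hand for 7 of the 10 genes. The stretch from base -250 to base -31 before the RefSeq start site is printed 5′ to 3′ on the plus strand, with capitals marking the GC box (GGGCGG) and the core of the hypoxia response element (ACGTG or GCGTG), on either strand.
*Cldn5*, chr16:18776597-18776816: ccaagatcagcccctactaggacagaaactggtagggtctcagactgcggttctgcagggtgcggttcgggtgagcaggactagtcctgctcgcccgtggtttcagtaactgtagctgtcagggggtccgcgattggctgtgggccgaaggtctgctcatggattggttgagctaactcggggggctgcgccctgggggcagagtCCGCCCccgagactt
*Slc2a1*, chr4:119108495-119108714: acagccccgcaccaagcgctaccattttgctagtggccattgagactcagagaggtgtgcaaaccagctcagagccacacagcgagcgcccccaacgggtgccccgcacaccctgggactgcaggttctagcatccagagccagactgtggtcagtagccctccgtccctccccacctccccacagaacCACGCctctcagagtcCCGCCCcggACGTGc
In the 250 bases before the start, *Cldn5* held 1 GC box, whose first base lies at -45, and no match to the hypoxia core. *Slc2a1* held GC boxes at -45 and -20 and hypoxia cores at -61 and -36. Its RefSeq start lies 34 bases inside the gene span of the count table, so the last 4 printed bases and the GC box at -20 fall within the counted gene. The 7 genes had 10 windows, of which 6 held a GC box and 4 a hypoxia core (in *Fzd4*, *Lef1*, *Mfsd2a* and *Slc2a1*), and of all 32851 promoter windows 32.7% and 38.6% held them. By gene, 4 of the 7 held a GC box. *Lef1* start sites 1, 2 and 3 each held 1, and whether these are the same bases was not tested. The TCF/LEF motif (CTTTG followed by any pair of A and T bases, either strand) was found at -171 in *Ndp* and at -147 in 1 of 4 start sites of *Lef1*, and in 14.8% of all windows. Some matches overlap, such as 2 hypoxia cores on opposite strands at -79 and -78 in 1 *Lef1* window and 2 GC boxes at -38 and -33 in *Fzd4*. All are matches of letters only, which say nothing of binding in these samples.

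The other genes of Norrin and Wnt7 signalling did not pass the test in either direction. Of 24 such genes, 21 were tested, 0 were called higher and 0 lower by edgeR, and their median log2 fold change was -0.09. At an unadjusted p under 0.05, 2 were higher and 3 lower, beside 2423 higher and 2005 lower of all 17998 genes tested. DESeq2 called 1 higher and 2 lower, and limma voom called 1 higher and 3 lower. The shares of all genes called by DESeq2 and limma voom are not given here. The negative feedback gene *Axin2*, the most used readout of β-catenin signalling, was at 18.6 ± 3.30 CPM in *Mettl3*-CKO and 22.0 ± 4.53 CPM in control (log2 fold change -0.24, adjusted p = 0.422). The ligand gene *Wnt7b* was at 5.40 ± 1.64 and 6.86 ± 1.04 CPM (-0.35, adjusted p = 0.351), and the coreceptor genes of WNT7, *Adgra2* and *Reck*, had log2 fold changes of -0.24 (adjusted p = 0.198) and -0.09 (adjusted p = 0.820). *Sox17*, an endothelial transcription factor gene downstream of Norrin, was removed by the filter at 0.222 ± 0.172 and 0.521 ± 0.546 CPM. *Adgra2* (-0.31, adjusted p = 0.0326) and *Gsk3b* (-0.27, adjusted p = 0.0486), a kinase gene of the β-catenin destruction complex, were called lower without control replicate 1, and *Sox18*, an endothelial transcription factor gene, without *Mettl3*-CKO replicate 4 (-3.19, adjusted p = 0.0335) or control replicate 3 (-2.60, adjusted p = 0.0262).

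Of 30 other barrier genes, 24 were tested, 1 was called higher (4.17%, beside 6.49% of all genes) and 2 lower (8.33%, beside 4.05%), and their median log2 fold change was -0.17. With so few calls these shares are near those over all genes, and the called genes are given as values. *Slc16a1*, which codes for the lactate transporter MCT1, rose from 18.1 ± 2.35 to 32.4 ± 2.95 CPM (log2 fold change 0.84, SE 0.11, adjusted p = 0.000983), and like *Slc2a1* it was higher in every *Mettl3*-CKO sample than in every control. *Slco1a4*, an organic anion transporter gene of brain and retinal endothelium, fell from 1.46 ± 0.162 to 0.654 ± 0.235 CPM (-1.15, SE 0.32, adjusted p = 0.0366), which is 7 to 18 counts a library in *Mettl3*-CKO and 23 to 28 in control. *Bsg*, whose product basigin carries MCT1 to the cell surface, fell from 319 ± 33.5 to 255 ± 20.003 CPM (-0.32, SE 0.09, adjusted p = 0.0457). Both *Bsg* and *Slc16a1* were far above the endothelial markers *Pecam1* (2.49 CPM in *Mettl3*-CKO, 6.17 in control) and *Cdh5* (1.49 and 5.45 CPM). Which cells their transcripts came from was not tested, so these changes cannot be placed in the vessels. The tight junction scaffold gene *Tjp1* was at 161 ± 12.8 and 176 ± 21.0 CPM (-0.13, adjusted p = 0.460). The tight junction gene *Ocln* and the efflux pump gene *Abcb1a* were removed by the filter, at 0.270 ± 0.211 against 0.614 ± 0.198 CPM and at 0.233 ± 0.157 against 0.969 ± 0.710 CPM. Without control replicate 1, 3 barrier genes were called lower, *Slco1a4*, *Bsg* and the junction gene *Cgn* (-0.52, adjusted p = 0.0339), and *Slc16a1* was again called higher. *Slc16a1* was the only gene of this list called whichever of the 8 samples was left out (0.78 to 0.92). The count of lower barrier genes was 0 without *Mettl3*-CKO replicate 3, control replicate 2 or control replicate 4, and 1 without *Mettl3*-CKO replicate 1, 2 or 4 or control replicate 3, which was *Foxf2*, *Foxf2*, *Slco1a4* and *Abcb1a*. *Foxf2* and *Abcb1a* passed the filter in those fits of 7 samples. Over the 8 fits that leave out 1 sample, *Slco1a4* was called in 2 and *Bsg* in 1, so both calls depended on the samples included.

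**Figure D3:**
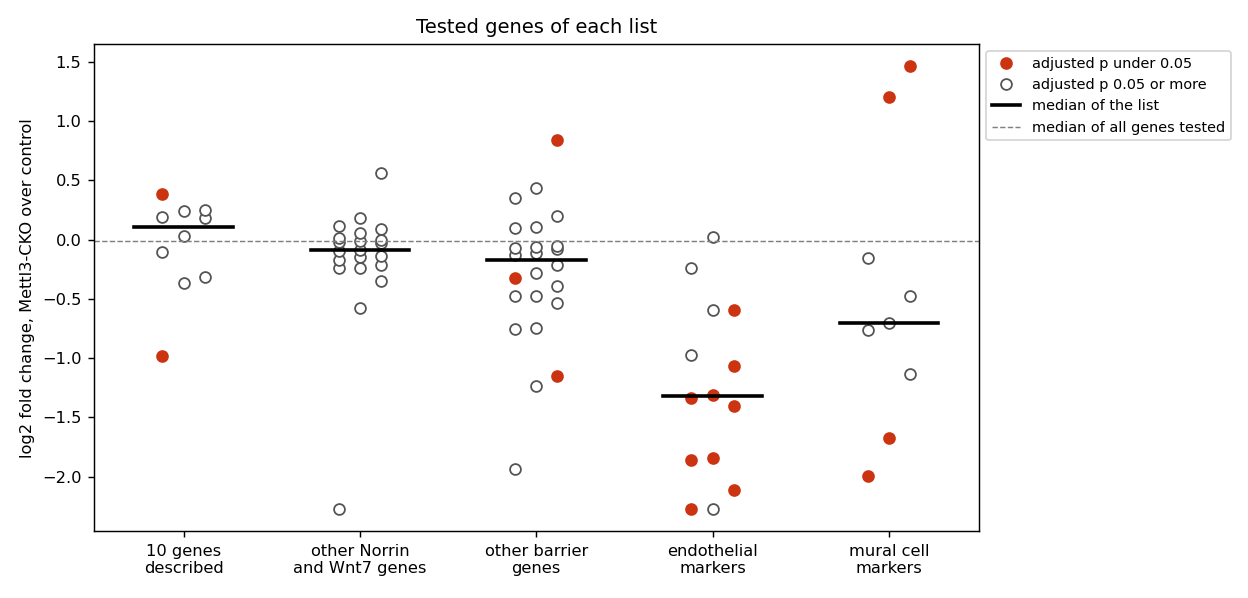
Each point is the log2 fold change (y axis, *Mettl3*-CKO over control, edgeR) of 1 tested gene in the 5 lists on the x axis, filled where the adjusted p is under 0.05. List medians, the thick bars, are 0.10 for the 10 genes, -0.09 and -0.17 for the other signalling and barrier genes, -1.32 for 14 endothelial markers and -0.70 for 9 mural cell markers.

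Endothelial markers moved with *Cldn5*. Of 18 such genes, without *Cldn5* and *Plvap*, 14 were tested, with a median log2 fold change of -1.32. By edgeR 9 were called lower (64.3%, beside 4.05% of all genes) and 0 higher. DESeq2 called 11 lower and 0 higher, and limma voom 8 and 0, for which the shares over all genes are not given here. *Cdh5*, the endothelial cadherin, fell from 5.45 ± 4.04 to 1.49 ± 0.517 CPM (-1.86, adjusted p = 0.0182) and *Pecam1* from 6.17 ± 4.23 to 2.49 ± 0.339 CPM (-1.31, adjusted p = 0.0377). *Tie1*, *Cd93*, *Tek* and *Eng*, which code for vascular receptors and surface proteins, had log2 fold changes of -2.28, -2.11, -1.84 and -1.40 (adjusted p = 0.0148, 0.00579, 0.0432 and 0.0333). The remaining calls were *Flt1* (-1.34), *Robo4* (-1.07) and *Egfl7* (-0.60). Not called, with overlapping groups, were *Sox18* (-2.27, adjusted p = 0.0555), *Cd34* (-0.97, adjusted p = 0.113), *Esam* (-0.60, adjusted p = 0.350) and *Ramp2* (-0.24, adjusted p = 0.695). *Kdr*, which retinal progenitors also express, was at 558 ± 41.1 and 549 ± 59.9 CPM (0.02, adjusted p = 0.921) and made up most of the list's summed 548 to 652 CPM in *Mettl3*-CKO and 581 to 669 CPM in control. Without control replicate 1, 8 of the 14 were called lower (57.1%, beside 7.07% of all genes) and the median was -0.89. The falls were then smaller, at -1.19 for *Cdh5*, -0.70 for *Pecam1*, -1.53 for *Tie1*, -1.48 for *Cd93* and -0.87 for *Eng*, and *Tek* was no longer called (-1.18, adjusted p = 0.0628). Over the 8 fits that leave out 1 sample, *Cd93* and *Flt1* were called in 8, *Tie1* in 7 and *Pecam1* in 3. The count of lower genes was 4, 4 and 3 without *Mettl3*-CKO replicate 1, 2 and 3, and 5 without control replicates 1 and 4 together. The shares over all genes in these fits are not given here. Fewer endothelial cells and less RNA of these genes per cell cannot be told apart in whole retina.

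Each of the 10 genes was therefore also set against the endothelial markers of its own library, as its log2 CPM (prior count 2) minus the mean log2 CPM of the 14 tested endothelial genes. That endothelial mean was 1.38 ± 0.32 in *Mettl3*-CKO and 2.50 ± 0.62 in control (SD, n = 4 each), a difference of -1.12, and any gene that did not change would rise by that amount against it. On this relative scale 65.2% of all genes tested were higher in every *Mettl3*-CKO sample than in every control. The same was true of 6 of the 10, *Ndp*, *Fzd4*, *Tspan12*, *Lef1*, *Apcdd1* and *Slc2a1*, with differences of 1.15 to 1.497 (two-sided exact permutation p = 0.0286 each before adjustment for 10 genes, the smallest that 4 against 4 allows). That share is near the background and is not a result about these genes.

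Of the 10 genes, *Cldn5* changed by the amount closest to that of the endothelial mean. Relative to it, *Cldn5* was at 1.503, 1.33, 0.89 and 0.26 in *Mettl3*-CKO and at 0.75, 0.71, 0.94 and 0.65 in control, in log2 units. The controls, replicate 1 included, lie within a narrow range that the *Mettl3*-CKO samples surround. The difference was 0.23 (exact permutation p = 0.4), so a fall of *Cldn5* beyond that of the endothelial markers was not detected. This difference moved with the samples and the score, to 0.066, 0.12 and 0.48 without *Mettl3*-CKO replicate 1, 2 and 4, to 0.0037 with the median in place of the mean of the endothelial genes, and to 0.48 against *Pecam1* and *Cdh5* alone. *Plvap* (0.75, exact permutation p = 0.0571) and *Mfsd2a* (0.85, exact permutation p = 0.0571) had the next smallest differences, followed by *Lrp5* (1.03, exact permutation p = 0.0857, and 0.57 without control replicate 1), and the groups overlapped in all 4 genes.

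**Figure D4:**
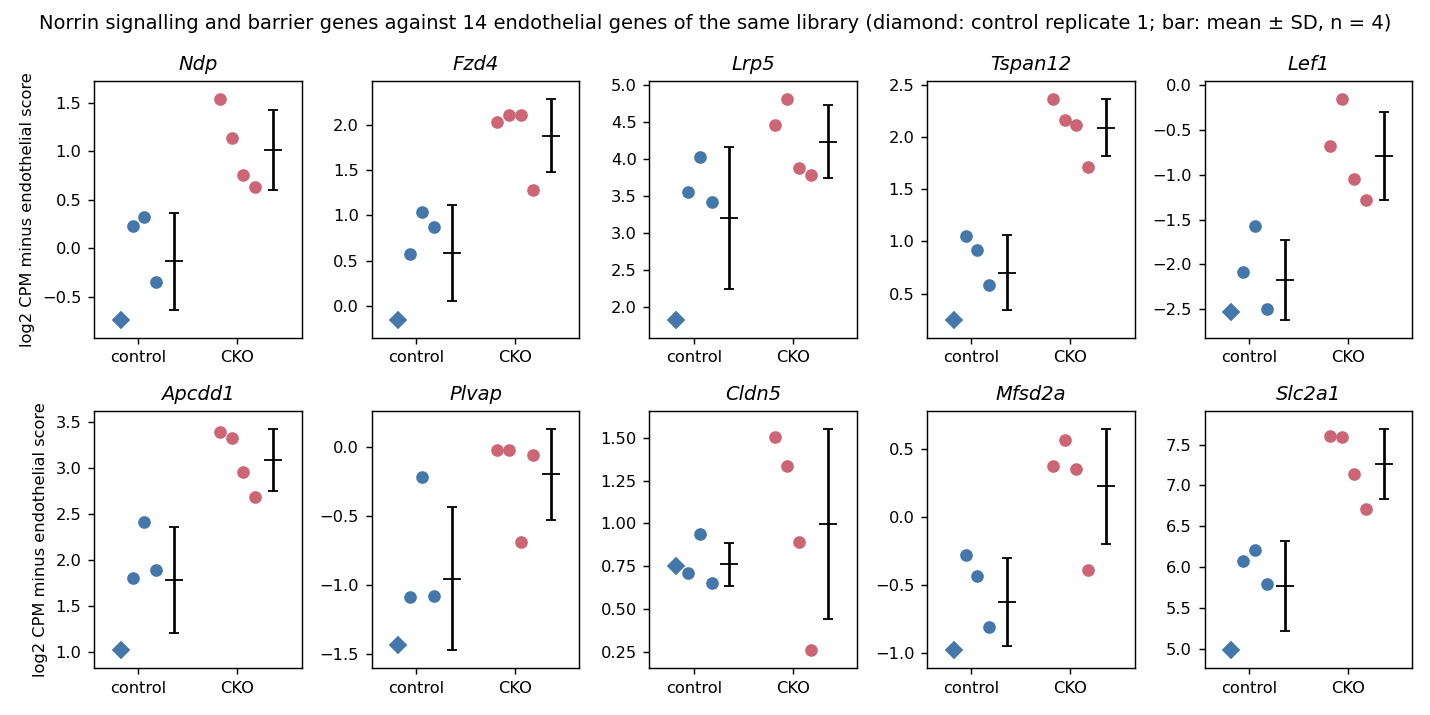
Each panel plots the log2 CPM of 1 gene minus the mean log2 CPM of 14 endothelial genes of the same library (y axis, log2 units). Points are 4 control and 4 *Mettl3*-CKO retinal samples, with the mean and SD of each group. In *Cldn5* the controls lie between 0.65 and 0.94, inside the *Mettl3*-CKO range of 0.26 to 1.503, while in *Slc2a1* the groups are apart.

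Markers of other cells that the samples could hold also differed with genotype, and their part in the results above was not tested. Their edgeR counts stand beside 6.49% of all genes called higher and 4.05% lower. Without control replicate 1 these shares were 10.3% and 7.07%. Of 12 mural cell genes, 9 were tested: *Rgs5* and *Abcc9* were called lower, *Notch3* and *Cspg4* higher, and the summed level was 120.5 to 158 CPM in *Mettl3*-CKO and 133 to 168 CPM in control. Most of that sum was *Ndufa4l2* (80.9 ± 12.4 and 90.0 ± 10.4 CPM) and *Notch3* (38.9 ± 9.86 and 14.1 ± 2.71 CPM), so it says little of the other mural genes. Of 12 genes of pigment epithelium and pigmented choroid, 10 were tested, 4 were called lower and *Rgr* higher, with 78.3 to 104 CPM in *Mettl3*-CKO and 104 to 143 CPM in control. The defining pigment epithelium gene *Rpe65* was at 0 to 7 counts in *Mettl3*-CKO and 0 to 14 in control. Erythrocyte genes summed to 4.35 to 7.38 CPM in *Mettl3*-CKO and 14.1 to 26.5 CPM in control, with 2 of 3 tested genes lower. Lens genes had 3 of 6 tested genes called lower, but the groups overlapped in every one of the 12, and none of these calls remained without control replicate 4, the sample with the high lens level. Of 7 astrocyte genes 2 were lower, of 10 tested Müller glia genes 2 were lower and 1 higher, and of 11 microglia genes 0 were called by edgeR or DESeq2, with 1 higher and 0 lower at an unadjusted p under 0.05 in edgeR. With limma voom and its sample weights 9 of the 11 microglia genes were called higher, and with edgeR 7 were without control replicate 1, whose microglia genes summed to 207 CPM against 65.7 to 103 CPM in the other controls and 115 to 167 CPM in *Mettl3*-CKO. The share of all genes that limma voom called is not given here, so its microglia count cannot be set beside a background. Of the mural, pigment epithelium, erythrocyte, lens, astrocyte, retinal and Müller glia lists, the count of lower or higher genes moved by over 1.5 times without control replicate 1 only in Müller glia (3 higher). *Rgr* was not called without control replicate 4. The tissue was labelled retina, and the photoreceptor genes *Nrl*, *Nr2e3* and *Crx* passed the filter and were called lower.

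The genes whose log2 CPM was most like that of 4 of the genes over the 8 samples were found among 14316 genes with a mean log2 CPM of at least 1, as a description, since the 8 points share libraries and genotype. *Cldn5* was most like *Vwa1* (Pearson r = 0.98), *Atp5a1* (0.97) and *Sdhc* (0.97), and *Slc2a1* most like *Hsph1* (0.99), *Dnajc25* (0.99) and *Ckap2l* (0.99). *Ndp* was most like *Ptgr1* (0.95), *Tmem120b* (0.93) and *Srprb* (0.93), and *Plvap* most like *Pgam1* (0.95), *Agps* (0.94) and *Sertad3* (0.94). Without control replicate 1 these correlations were between 0.90 and 0.996, over 7 samples. The genes had been picked for a high r over samples that include these 7, so this is no separate check.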

How the data were processed

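Read counts per gene were deposited by the authors, who per the study's methods removed low-quality reads, aligned the rest to GRCm38 by Hisat2 and used featureCounts. The annotation release and the use of strand are not given in the sources used here. In R 4.3.3, counts were filtered (filterByExpr), scaled by TMM and tested with edgeR 4.0.16 (quasi-likelihood, Benjamini-Hochberg over 17998 genes, threshold 0.05). The SE is the size of the log2 fold change over the root of F. Alternatives were limma 3.58.1 (voom) and DESeq2 1.42.0. The biological coefficient of variation was 15.0%, and the test was checked on simulated data. The 10 genes and the other lists were chosen with earlier results of these data known, and the motifs and ratios after the values had been seen. All 10 genes are named, and of the other lists the called genes (up to 6 by size of change) and a set named beforehand. The endothelial genes *Robo4*, *Egfl7*, *Cd34*, *Esam*, *Ramp2* and *Kdr* were named beyond this rule. *Gsk3b*, *Sox18*, *Cgn*, the mural, pigment epithelium and retinal genes were named after their values were seen. In the file, 9 of 10 genes have their GENCODE vM21 coordinates, and *Apcdd1* a shorter model of 2799 bases. Exonic bases are shared with antisense genes by *Lef1* (1208, at 0 to 2 counts), *Slc2a1* (105, at 4 to 41 counts) and *Tspan12* (98, at 0 to 1 counts). Marker list counts, level order and likeness without control replicates 1 or 4 were added after seeing the data.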

Additional observations from a re-analysis of the deposited data

Results flagged for a closer look

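Among 40 groups of 4 samples (10 genes, CPM and relative level, both genotypes), 3 held a sample that stood apart by Dixon's test, where chance gives about 2. *Cldn5* in control replicate 1 was at a log2 CPM of 4.15, against 2.91 to 3.002 in the other controls. *Fzd4* relative to the endothelial mean was at 1.27 in *Mettl3*-CKO replicate 4, against 2.03 to 2.11 in the others of its group. *Plvap* relative to the endothelial mean was at -0.69 in *Mettl3*-CKO replicate 3, against -0.06 to -0.02 in the others.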

How the results depend on the processing

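*Cldn5* and *Slc2a1* were called under DESeq2, limma voom, RLE, upper-quartile and total-count scaling, no filter, a CPM of at least 1 in 4 samples, and the replicate block. Neither was called at an adjusted p under 0.01 (0 higher, 0 lower) or with a change over 2-fold (0 and 0). Leaving out 1 sample gave 0 to 1 genes higher and 0 to 1 lower of the 10, 0 to 2 signalling genes lower, 0 to 3 barrier genes lower and 3 to 12 endothelial genes lower. *Ndp* turned to -0.095 without *Mettl3*-CKO replicate 1 and to -0.084 without control replicate 4, and was at most 0.14, without control replicate 1. Without control replicates 1 and 4, 0 of the 10, 0 barrier and 5 endothelial genes were lower. Other signalling genes came to 1 higher and 2 lower with DESeq2, 1 and 3 with voom, and 1 lower with no filter. Other barrier genes came to 6 lower with DESeq2, 5 with voom, 6 with no filter, 0 at 0.01 and 1 past 2-fold, with 0 higher past 2-fold. Endothelial genes came to 2 lower at 0.01. The cause of these differences was not tested. Shares over all genes in these settings are not given here, except without control replicate 1. Whether the replicate numbers pair the samples could not be told. The correlations of deviations were -0.11, 0.22, -0.11 and 0.25 for numbers 1 to 4, best with their own number only for 2 and 4. With the replicate block the 10 genes held 1 higher and 1 lower, with *Cldn5* at -0.91, and the endothelial genes 6 lower. Counts of 13 to 32 for *Lef1* and 30 to 71 for *Plvap* limit what could be detected, and only counting error is covered by the limit of 3 counts.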

Other observations

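Ratios between pairs of these genes were computed after their values were seen and were not tested. The log2 ratio of *Slc2a1* to *Cldn5* CPM was 6.10, 6.26, 6.25 and 6.45 in *Mettl3*-CKO and 4.23, 5.36, 5.27 and 5.14 in control. The groups could not overlap here, since they were already apart in both genes and in opposite directions. The log2 ratio of *Ndp* to *Cldn5* was 0.02 ± 0.26 in *Mettl3*-CKO and -0.90 ± 0.45 in control (SD, n = 4 each). As the log2 fold change of *Ndp* was 0.03, this ratio mainly restates the fall of *Cldn5*. The log2 ratio of *Mfsd2a* to *Plvap* was 0.42 ± 0.57 and 0.32 ± 0.42, a difference within the spread of either group.

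*Foxf2*, a transcription factor gene of pericytes, was removed by the filter and was named after its values were seen. It was at 2, 1, 4 and 2 counts in *Mettl3*-CKO and at 38, 9, 7 and 24 counts in control, and DESeq2, which kept it, gave an adjusted p of 0.000487.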
